A study of Homo sapiens with 6 samples.

Results

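The genes described here are 9 members of the kallikrein-related peptidase family, KLK4, KLK5, KLK6, KLK7, KLK8, KLK10, KLK11, KLK13 and KLK14, chosen by gene name from the cluster on chromosome 19. Of the 9, 8 were matched among the 27104 genes measured, and KLK4 was not analysed here. The RNA was from OVCAR3, a line long in culture that was derived from a human ovarian carcinoma, at passages 20 to 25. There were 3 libraries labelled DAB2IP O/E, from cells transfected with a vector made to overexpress DAB2IP, and 3 libraries labelled empty vector, from cells transfected with the vector alone. Levels are in FPKM, reads scaled to transcript length and by a factor for each library, so levels of different genes can be compared. The labels do not say that the transfections used separate cultures, so a p-value here reflects variation among these libraries that may be technical. A change in the number of expressing cells and in RNA per cell cannot be told apart.

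Kallikreins are secreted serine proteases made as inactive proenzymes that other proteases, including other kallikreins, activate by cleavage. In the epidermis they form a cascade in which KLK5 activates itself, KLK7 and KLK14, and the active enzymes cut the adhesion proteins that hold surface cells together. Several kallikreins, KLK6 among them, are known as secreted products of ovarian carcinomas and have been studied as serum markers.

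Between 20445867 and 35434533 whole reads were recovered from each library. DAB2IP itself went against the labels, at 5.74, 5.02 and 5.73 FPKM in the libraries labelled DAB2IP O/E, against 7.49, 7.76 and 8.01 FPKM in the empty vector libraries. Its log2 change was −0.43 (SE 0.06), and the adjusted p from limma (Benjamini-Hochberg) was 0.00548, so every direction given below belongs to libraries with less measured DAB2IP RNA. Whether the group labels were exchanged was not tested, and an exchange would turn every direction, fold and ratio given below. All 10 ovarian epithelial markers were above the filter on low values. Of these, 3 rose, 1 fell and 6 did not pass, against 9.29% higher and 9.17% lower of all genes tested (limma, Benjamini-Hochberg). The 3 that rose were the keratins KRT7, KRT8 and KRT18, with KRT8 at a mean of 226 FPKM with DAB2IP O/E and 141 FPKM with empty vector. The transcription factor WT1 fell to a mean of 18.1 FPKM with DAB2IP O/E, against 25.0 FPKM with empty vector. The summed level of the list was 1255 to 1325 FPKM with DAB2IP O/E and 974 to 1031 FPKM with empty vector, and its part in the results was not tested. The extraction protocol names adipocytes, but of 9 adipocyte markers 6 were matched and only ADIPOR2, which many tissues express, passed the filter, while PLIN1, the lipid droplet coat protein, was at a mean of 0.0206 FPKM with DAB2IP O/E and 0.0159 FPKM with empty vector. Keratinocyte markers, relevant because kallikreins are epidermal proteases, summed to 8.08 to 8.88 FPKM with DAB2IP O/E and 7.11 to 8.90 FPKM with empty vector over the 5 of 10 matched. Of these, KRT14 was at a mean of 1.64 FPKM with DAB2IP O/E and 1.16 FPKM with empty vector and passed the test upward at an adjusted p of 0.0337 (limma, Benjamini-Hochberg), while TP63 was at 0.0381 FPKM with DAB2IP O/E and 0.0311 FPKM with empty vector. The part of such cells in the results was not tested. Fibroblast markers summed to 2.11 to 2.55 FPKM with DAB2IP O/E and 2.02 to 2.40 FPKM with empty vector, with 6 of 8 matched. Leukocyte markers summed to 1.30 to 1.96 FPKM with DAB2IP O/E and 1.59 to 2.104 FPKM with empty vector, with 6 of 8 matched. Endothelial markers, all 6 matched and none above the filter, summed to 0.808 to 0.886 FPKM with DAB2IP O/E and 0.678 to 0.806 FPKM with empty vector.

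Among the 5 family members tested, KLK5 had the largest rise and KLK7 the only fall, and their promoters show the sequence around the starts of genes of 1 cluster that moved in opposite directions. Both windows, from RefSeq in GRCh38.p14, hold 250 bases before and 50 after an annotated start, on the minus strand and written 5′ to 3′. For KLK7, which has several annotated starts, the start nearest to that of the deposited gene is shown. Capitals mark matches to GGAAG, a form of the core that ETS factors bind, or its reverse complement. Other forms of that core are not marked or counted.
KLK5, chr19:50952989-50953288: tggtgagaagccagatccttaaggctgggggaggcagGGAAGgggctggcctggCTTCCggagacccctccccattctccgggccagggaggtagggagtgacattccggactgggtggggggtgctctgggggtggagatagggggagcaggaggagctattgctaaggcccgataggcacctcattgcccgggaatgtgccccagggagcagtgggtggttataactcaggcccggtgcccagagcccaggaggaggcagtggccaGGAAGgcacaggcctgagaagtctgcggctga
KLK7, chr19:50984015-50984314: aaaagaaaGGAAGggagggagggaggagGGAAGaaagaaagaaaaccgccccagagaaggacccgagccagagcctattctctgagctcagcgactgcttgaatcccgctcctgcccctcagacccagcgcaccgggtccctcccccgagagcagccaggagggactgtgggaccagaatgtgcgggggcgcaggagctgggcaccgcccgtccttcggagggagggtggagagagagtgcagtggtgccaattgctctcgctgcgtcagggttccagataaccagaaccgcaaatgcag
The KLK5 window held 3 such matches and the KLK7 window shown 2, while the windows of the other two KLK7 starts held 0. Of all 35116 promoter windows of this length, 71.9% hold at least 1. TATAAA, the AP-1 motif TGANTCA and AGAACA, a core that some hormone receptors bind, were searched on both strands. They had no match in any of the 16 windows of the 8 genes with an entry (KLK8 had none). Of all windows, 11.5%, 7.71% and 14.8% hold them. Cores that other hormone receptors bind were not searched.

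In OVCAR3 libraries labelled DAB2IP O/E, KLK5 and KLK8 were higher and KLK7 was lower than with empty vector, while KLK6, the most abundant of the family, was at nearly the same level. Of the 8 genes, 5 averaged 1 FPKM or more and were tested, and all 5 were above 1 FPKM in every library. At an adjusted p under 0.05, 2 rose, 1 fell and 2 did not pass (limma, Benjamini-Hochberg). Of all 14761 genes tested, 18.5% passed in either direction, 9.29% as higher and 9.17% as lower. The 3 values of each group lay apart in 3 of the 5, against 40.4% of all genes tested. The median log2 change was 0.20 over these 5 genes and −0.0004155 over all genes tested.

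KLK5, a trypsin-like protease that starts the epidermal cascade, had 19.8, 17.8 and 18.5 FPKM in the libraries labelled DAB2IP O/E, against 9.79, 11.5 and 11.0 FPKM in the empty vector libraries. All 3 values with DAB2IP O/E lay well above the highest value with empty vector. The means were 18.7 ± 1.01 and 10.8 ± 0.884 FPKM (SD, n = 3 per group), a ratio of 1.74. The log2 change was 0.74 (SE 0.07, 95% interval 0.58 to 0.91), and the adjusted p from limma (Benjamini-Hochberg) was 0.00125. On this scale of log2(FPKM + 1), which understates changes of low genes, 1.38% of the genes tested changed by more in either direction. Each value rested on 323 to 1177 reads.

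KLK7, a chymotrypsin-like protease that KLK5 can activate, had 3.95, 3.53 and 4.03 FPKM with DAB2IP O/E, against 5.87, 7.56 and 7.03 FPKM with empty vector. The groups did not overlap, and the lowest empty vector library, replicate 1, was still above all 3 libraries labelled DAB2IP O/E. The means were 3.84 ± 0.271 and 6.82 ± 0.866 FPKM (SD, n = 3 per group), a ratio of 0.563. The log2 change was −0.69 (SE 0.09, 95% interval −0.90 to −0.48), and the adjusted p from limma (Benjamini-Hochberg) was 0.00422, from 247 to 485 reads per library. A larger change in either direction, on the same scale of log2(FPKM + 1), was found for 1.84% of the genes tested.

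KLK8, the trypsin-like protease also called neuropsin, known in skin and in the brain, had 13.8, 13.6 and 12.6 FPKM with DAB2IP O/E, against 7.79, 9.65 and 11.3 FPKM with empty vector. The groups did not overlap, but the empty vector libraries were spread widely, with a standard deviation of 18.4% of their mean against 5.11% with DAB2IP O/E. The log2 change was 0.45 (SE 0.12), and the adjusted p from limma (Benjamini-Hochberg) was 0.0360. The call was lost when any library labelled DAB2IP O/E was left out, with adjusted p-values of 0.109, 0.0923 and 0.0807 without replicates 1, 2 and 3, and without empty vector replicate 2, at 0.0875 (limma, Benjamini-Hochberg). Over all alternatives its adjusted p ran from 0.00601 to 0.109 (limma, Benjamini-Hochberg), and it was 0.0718 with no filter on low values. In GENCODE 29, 40.1% of the exon bases of KLK8 are shared with AC011473.4, a gene on the same strand, so reads may be divided between them. AC011473.4 was at 7.05 ± 0.327 FPKM with DAB2IP O/E and 5.32 ± 1.10 FPKM with empty vector (SD, n = 3 per group), with a log2 change of 0.36 and an adjusted p of 0.0743 (limma, Benjamini-Hochberg).

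KLK6, a trypsin-like protease also called neurosin, had 37.7, 35.6 and 36.2 FPKM with DAB2IP O/E, against 36.1, 36.7 and 36.6 FPKM with empty vector. The values of the 2 groups overlapped throughout. The log2 change was 0.0016 (SE 0.04), and the adjusted p from limma (Benjamini-Hochberg) was 0.983. The sign turned under other scalings, to −0.01 with upper-quartile scaling and −0.03 with equal library medians. Its 95% interval of −0.10 to 0.10 does not reach the estimates of KLK5, KLK7 or KLK8. KLK6 had the most reads of the family, 1424 to 2679 per library, and stood above 90.7% to 91.3% of the tested genes with DAB2IP O/E and above 90.8% to 90.9% with empty vector.

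KLK10, first described in normal breast epithelial cells, had 2.40, 2.13 and 2.03 FPKM with DAB2IP O/E, against 2.11, 1.55 and 1.70 FPKM with empty vector. Empty vector replicate 1 lay among the values of the other group. The log2 change was 0.20 (SE 0.09, 95% interval −0.02 to 0.41), and the adjusted p from limma (Benjamini-Hochberg) was 0.173, so a rise of this size was not separated from the spread between libraries. Exact permutation tests over libraries, 2-sided, gave p = 0.1 for KLK5, KLK7 and KLK8, the lower limit for 3 libraries against 3 with 20 possible assignments, 0.2 for KLK10 and 0.9 for KLK6.

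**Figure D1:**
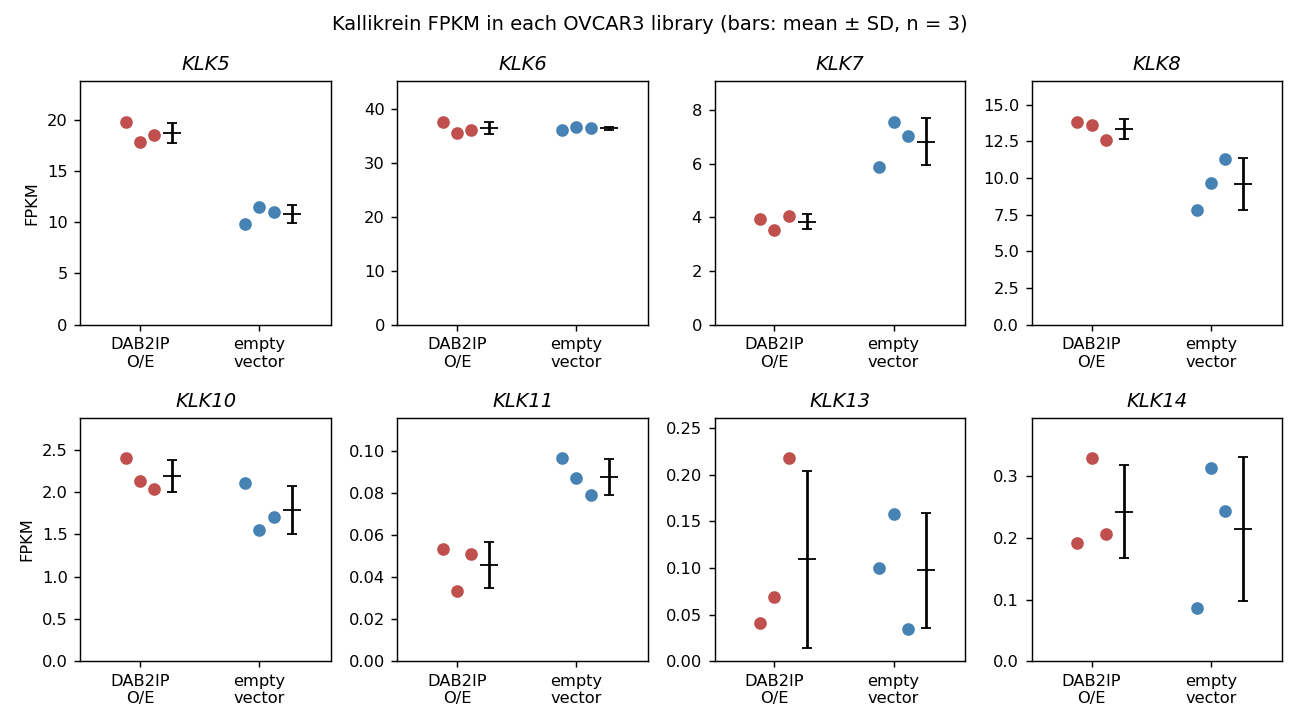
FPKM of the 8 kallikrein genes matched, each point a library and the bars the mean and SD (n = 3), with DAB2IP O/E left of empty vector and an axis from 0 in each panel. KLK5 at 17.8 to 19.8 FPKM with DAB2IP O/E and 9.79 to 11.5 FPKM with empty vector and KLK7 at 3.53 to 4.03 FPKM with DAB2IP O/E and 5.87 to 7.56 FPKM with empty vector separate in opposite directions, while the KLK6 points overlap.

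KLK11, KLK13 and KLK14, all trypsin-like, lay below the filter at 0.0334 to 0.329 FPKM, from 2 to 11 reads per library, and were not tested in the comparison across genes. KLK11 had 0.0536, 0.0334 and 0.0510 FPKM with DAB2IP O/E, against 0.0966, 0.0874 and 0.0793 FPKM with empty vector. These values did not overlap, but they rested on 13 reads in all with DAB2IP O/E and 19 with empty vector. The ratio of read rates was 0.543, with an exact 95% interval of 0.246 to 1.16 that covers counting error only and includes equal rates. The same ratio was 1.10 for KLK13 (0.509 to 2.44, 18 reads with DAB2IP O/E and 13 with empty vector) and 1.10 for KLK14 (0.577 to 2.14, 25 reads with DAB2IP O/E and 18 with empty vector). Each of these 3 intervals includes equal rates, so no difference was detected for these genes at this depth.

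The order of levels in the libraries labelled DAB2IP O/E was KLK6, KLK5, KLK8, KLK7 and KLK10, and no library of that group departed from it. In the empty vector libraries KLK6 was again highest and KLK10 lowest, and KLK5 and KLK8 were close, with KLK8 at 11.3 FPKM slightly above KLK5 at 11.0 FPKM in replicate 3. The FPKM of the 8 genes summed to 78.0, 73.1 and 73.7 with DAB2IP O/E, against 62.0, 67.5 and 68.0 with empty vector, so the sums did not overlap. KLK5 made up 24.4% to 25.4% of the sum with DAB2IP O/E, against 15.8% to 17.1% with empty vector. KLK7 made up 4.82% to 5.47% with DAB2IP O/E, against 9.47% to 11.2% with empty vector. The share of KLK6 was 48.4% to 49.1% with DAB2IP O/E and 53.8% to 58.3% with empty vector, at an FPKM that was nearly equal in both. The ratio of KLK5 to KLK7, the activating trypsin-like protease over its chymotrypsin-like target, was 5.01, 5.05 and 4.58 with DAB2IP O/E, against 1.67, 1.52 and 1.56 with empty vector. These are ratios of RNA levels and carry no information on active enzyme.

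**Figure D2:**
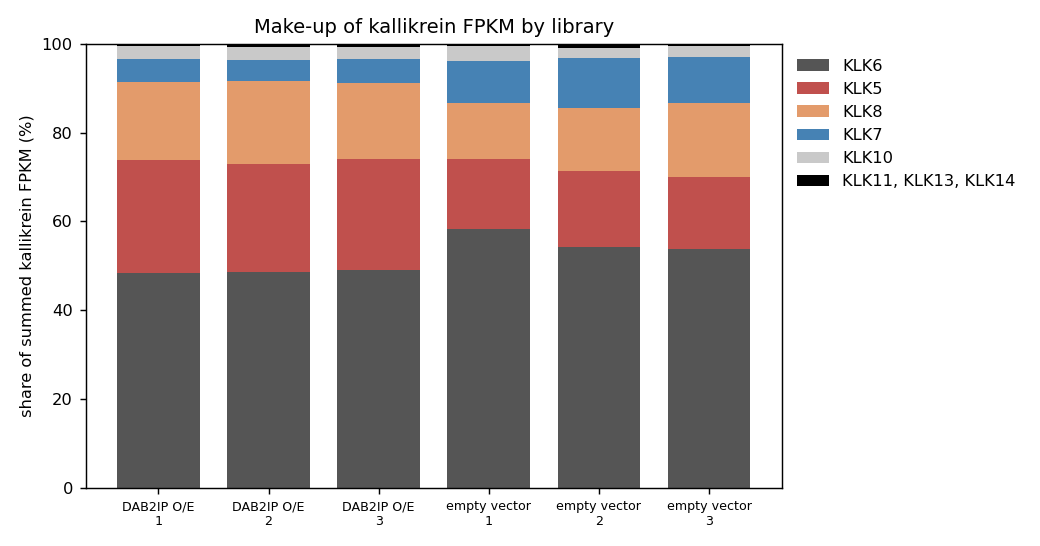
Share of each gene in the summed kallikrein FPKM of each library, in percent, with the 3 libraries labelled DAB2IP O/E left of the 3 with empty vector. KLK5 takes 24.4% to 25.4% with DAB2IP O/E and 15.8% to 17.1% with empty vector, and KLK7 4.82% to 5.47% with DAB2IP O/E and 9.47% to 11.2% with empty vector.

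The 8 genes lie on the minus strand of chromosome 19, in GRCh38, within 1 cluster. KLK5 (ENSG00000167754.12) spans 50943303 to 50953093, KLK6 (ENSG00000167755.14) 50958631 to 50969673, KLK7 (ENSG00000169035.11) 50976482 to 50984099, KLK8 (ENSG00000129455.15) 50996007 to 51002711 and KLK10 (ENSG00000129451.11) 51012739 to 51020175. KLK5 and KLK6 are 5.54 kb apart, KLK6 and KLK7 6.81 kb and KLK7 and KLK8 11.9 kb, so the gene that fell stands between a gene with no detected change and a gene that rose. KLK11 (ENSG00000167757.13), KLK13 (ENSG00000167759.12) and KLK14 (ENSG00000129437.9) follow up to 51084245. An antisense gene on the plus strand, AC011483.3, covers 12.2% of the exon bases of KLK5 and 20.3% of those of KLK6. Whether counting used the strand is not given in the sources used here. AC011483.3 had 9 reads in all with DAB2IP O/E and 19 with empty vector, while KLK5 had 2796 with DAB2IP O/E and 1258 with empty vector.

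Of 30 measured genes outside the cluster and within 500 kb of its ends, 9 were tested. Of these 9, 0 passed by limma, with 0 at an unadjusted p under 0.05, and 0 by limma-voom. Of all genes tested, 18.5% passed by limma and 19.8% by limma-voom. The 9 neighbours had log2 changes from −0.08 to 0.23 and a median of 0.12. C19orf48 passed at an adjusted p of 0.0338 when empty vector replicate 3 was left out (limma, Benjamini-Hochberg). The nearest tested genes on the KLK1 side were C19orf48, at 18.3 ± 1.14 FPKM with DAB2IP O/E and 16.1 ± 2.18 FPKM with empty vector, and JOSD2, a deubiquitinase, with a log2 change of 0.02 (SE 0.12). On the KLK14 side they were ETFB, a subunit of the electron transfer flavoprotein, with 0.09 (SE 0.09), and AC008750.8, with 0.23 (SE 0.13). From 50 Mb to the end of chromosome 19, a region that holds the cluster, the median log2 change of 137 tested genes was 0.02. Of these, 7 were higher, KLK5 and KLK8 among them, and 3 were lower, KLK7 among them, against 9.29% higher and 9.17% lower of all genes tested.

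**Figure D3:**
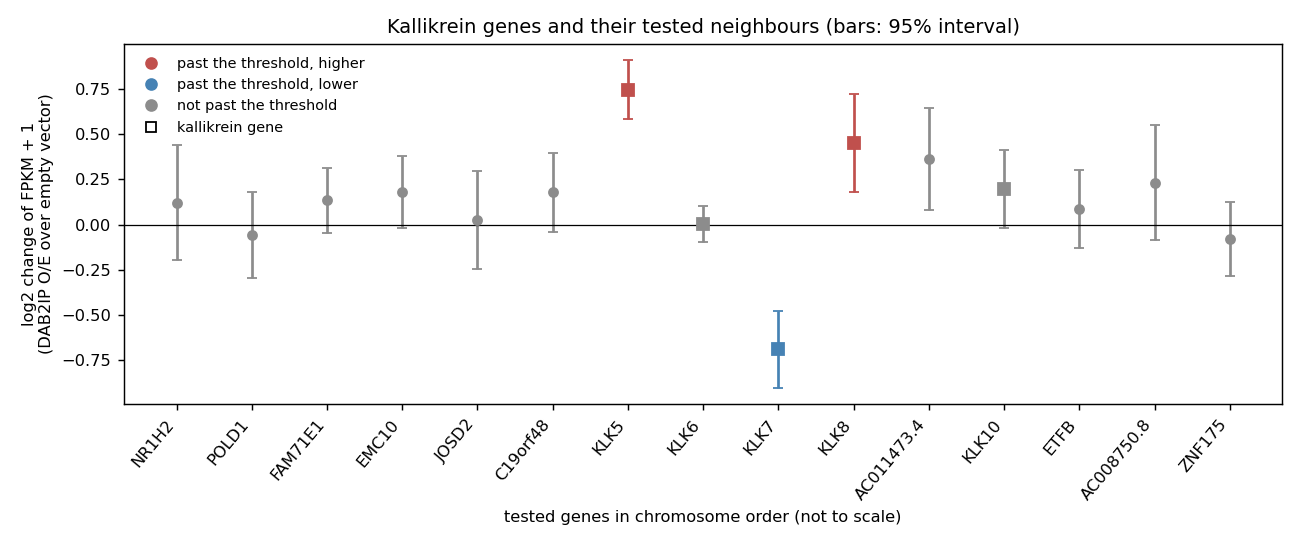
Log2 change of FPKM + 1, DAB2IP O/E over empty vector, with its 95% interval, for the tested genes within 500 kb of the kallikrein cluster in chromosome order, kallikreins as squares. KLK5 at 0.74 and KLK8 at 0.45 lie above 0, and KLK7 at −0.69 lies below. None of the 9 tested neighbours outside the cluster passed the threshold, against 18.5% of all genes tested that did.

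Of the 7 other kallikrein genes of the cluster listed, KLK1 and KLK15 were matched, both below the filter, and the remaining 5 were not analysed here. KLK1, tissue kallikrein, which releases kinins from kininogen, had 0.421, 0.393 and 0.267 FPKM with DAB2IP O/E, against 0.927, 0.896 and 0.979 FPKM with empty vector. All 3 values with DAB2IP O/E were below those with empty vector, from 79 reads with DAB2IP O/E and 157 with empty vector, and the ratio of read rates was 0.399, with an exact 95% interval of 0.301 to 0.526 for counting error only. In limma-voom on the recovered reads KLK1 had a log2 change of −1.34 (SE 0.23) and an adjusted p of 0.000803 (limma, Benjamini-Hochberg). KLK15 had a ratio of read rates of 1.09 (0.644 to 1.86).

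In the authors' deposited table, whose log2 fold changes are empty vector over DAB2IP O/E, KLK5 was at −0.79, KLK8 at −0.47 and KLK7 at 0.83. The adjusted p-values there, from the authors' deposited table, were 2.58e-14 for KLK5, 0.000804 for KLK8 and 1.87e-09 for KLK7. KLK10 and KLK6 had adjusted p-values of 0.176 and 0.989 in the authors' deposited table.

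Among the protease inhibitors listed, SPINT1, SPINT2 and SERPINA1 were higher and PI3 was lower. Of 15 listed, 9 were matched and 6 tested, of which 3 rose, 1 fell and 2 did not pass, against 9.29% higher and 9.17% lower of all genes tested, with a median log2 change of 0.15. PI3, the elastase inhibitor elafin, had 21.4, 17.1 and 17.8 FPKM with DAB2IP O/E, against 77.6, 49.2 and 46.8 FPKM with empty vector, where replicate 1 stood above the other two. Its log2 change was −1.54 (SE 0.19), and the adjusted p from limma (Benjamini-Hochberg) was 0.00314. SPINT1, the hepatocyte growth factor activator inhibitor that restrains matriptase, rose to 61.6 ± 2.36 FPKM with DAB2IP O/E, against 48.8 ± 0.979 FPKM with empty vector (SD, n = 3 per group). SERPINA1, alpha-1-antitrypsin, was at 4.75 ± 0.0125 FPKM with DAB2IP O/E and 3.58 ± 0.206 FPKM with empty vector, with a log2 change of 0.33. SPINT2, a related Kunitz inhibitor, was at 164 ± 2.62 FPKM with DAB2IP O/E and 140 ± 3.70 FPKM with empty vector, with a log2 change of 0.23. The call of SPINT2 was lost without DAB2IP O/E replicate 1 or 3 or empty vector replicate 2, with an adjusted p of up to 0.0645 (limma, Benjamini-Hochberg). SLPI, a secreted leukocyte protease inhibitor and far the most abundant of the list, did not pass, at a mean of 904 FPKM with DAB2IP O/E and 858 FPKM with empty vector.

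Among 16 listed trypsin-like proteases that activate kallikreins or act beside them, 14 were matched and 8 tested, of which 3 rose, 1 fell and 4 did not pass, against 9.29% higher and 9.17% lower of all genes tested, with a median log2 change of 0.17. ST14, the membrane protease matriptase, had 31.8, 27.4 and 29.3 FPKM with DAB2IP O/E, against 20.4, 21.6 and 23.5 FPKM with empty vector. The groups did not overlap. The log2 change was 0.42 (SE 0.07), and the adjusted p from limma (Benjamini-Hochberg) was 0.0107. PRSS22, a tryptase of epithelia, rose to 3.73 ± 0.257 FPKM with DAB2IP O/E, against 2.09 ± 0.328 FPKM with empty vector, and PRSS23, a secreted serine protease, changed by 0.31 on the log2 scale. TMPRSS3, a transmembrane protease, changed by −0.28 on that scale. The calls of PRSS23 and TMPRSS3 were lost without DAB2IP O/E replicate 3, at adjusted p-values of 0.0624 and 0.0825, and that of TMPRSS3 also without DAB2IP O/E replicate 2, at 0.0506, and empty vector replicate 2, at 0.0753 (limma, Benjamini-Hochberg). PLAU, the urokinase that activates plasminogen, was at a mean of 53.1 FPKM with DAB2IP O/E and 53.7 FPKM with empty vector and did not pass. TMPRSS2, a transmembrane protease below the filter, had 0.218, 0.323 and 0.305 FPKM with DAB2IP O/E, against 0.0164, 0.0519 and 0.0750 FPKM with empty vector. The groups did not overlap, from 152 reads with DAB2IP O/E and 22 with empty vector, and limma-voom on the recovered reads gave a log2 change of 2.58 and an adjusted p of 0.000756 (limma, Benjamini-Hochberg).

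Of 30 listed receptors and substrates, 27 were matched and 19 tested, of which 5 rose, 4 fell and 10 did not pass, against 9.29% higher and 9.17% lower of all genes tested, with a median log2 change of −0.03. FLG, the epidermal protein filaggrin, fell to 6.34 ± 0.780 FPKM with DAB2IP O/E, against 25.0 ± 1.98 FPKM with empty vector (SD, n = 3 per group). F2RL1, the protease-activated receptor that trypsin-like kallikreins such as KLK5 can cleave, had 22.7, 25.6 and 23.0 FPKM with DAB2IP O/E, against 20.0, 18.6 and 19.4 FPKM with empty vector. The groups did not overlap. Its log2 change was 0.28 (SE 0.06), and the adjusted p from limma (Benjamini-Hochberg) was 0.0188, which became 0.0570 without DAB2IP O/E replicate 3 and 0.0698 without empty vector replicate 2. SCNN1A, the alpha subunit of the epithelial sodium channel, changed by 0.35 on the log2 scale and MBP, the myelin basic protein, a substrate of KLK6, by 0.46. CDSN, the corneodesmosin that KLK5 and KLK7 cut in skin, was at a mean of 0.149 FPKM with DAB2IP O/E and 0.113 FPKM with empty vector, below the filter.

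Several kallikreins respond to steroid hormones in other cells, and the nuclear hormone receptors listed were therefore measured. Of 9 listed, 8 were matched and 5 tested, namely NR3C1, VDR, THRB, RARA and RARG. Of these 5, 0 passed by limma, against 18.5% of all genes tested, and 2 had an unadjusted p under 0.05 (limma). By limma-voom 1 of these 5, THRB, was past the threshold, against 19.8% of the genes tested that way. The median log2 change of these 5 was −0.13. THRB, a thyroid hormone receptor, was lowest by adjusted p, with a log2 change of −0.20 and an adjusted p of 0.0530 that became 0.0460 with upper-quartile scaling, 0.0399 with equal library medians and 0.0292 in limma-voom on the recovered reads (limma, Benjamini-Hochberg). ESR1, an oestrogen receptor, was below the filter, at a mean of 0.103 FPKM with DAB2IP O/E and 0.0590 FPKM with empty vector. Its values did not overlap, from 130 reads with DAB2IP O/E and 57 with empty vector. Limma-voom on the recovered reads gave ESR1 a log2 change of 0.91 (SE 0.29) and an adjusted p of 0.0377 (limma, Benjamini-Hochberg). In the authors' deposited table its adjusted p was 0.117. ESR2, also below the filter, had −0.47 and an adjusted p of 0.415 by limma-voom.

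**Figure D4:**
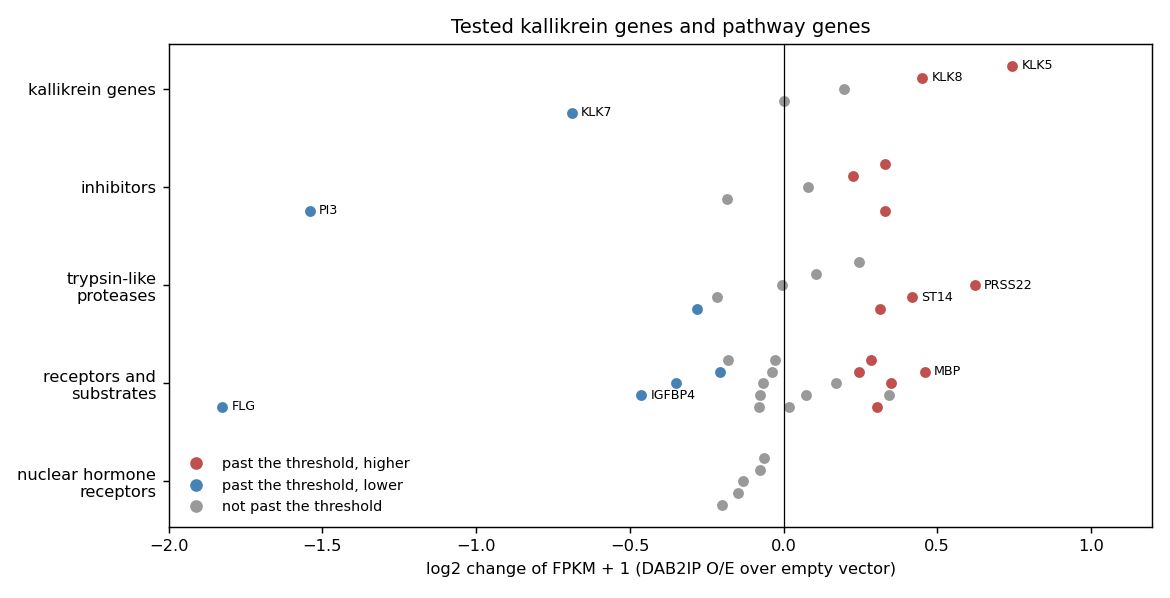
Log2 change of FPKM + 1, DAB2IP O/E over empty vector, for each tested kallikrein gene and each tested gene of the lists of inhibitors, trypsin-like proteases, receptors and substrates, and nuclear hormone receptors, with vertical offsets only to keep points apart. Genes past the threshold lie on both sides of 0 in the first 4 rows, from FLG at −1.83 to KLK5 at 0.74. In the last row none of the 5 receptors passed, against 18.5% of all genes tested that did.

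The 5 tested genes outside the family with the pattern most like the summed kallikrein FPKM over the 6 libraries were MDK, which encodes the growth factor midkine, SNN, TMEM109, MEA1 and TMEM136. Their Pearson correlations, of log2(FPKM + 1) with the log2 sum, were 0.996, 0.995, 0.995, 0.994 and 0.994, over 6 libraries that fall into 2 groups. MDK was at 107 ± 6.02 FPKM with DAB2IP O/E and 81.0 ± 9.24 FPKM with empty vector (SD, n = 3 per group), with a log2 change of 0.40 and an adjusted p of 0.0219, which became 0.0765 without DAB2IP O/E replicate 1 and 0.0684 without DAB2IP O/E replicate 3 (limma, Benjamini-Hochberg).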

How the data were processed

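Poly-A RNA of 6 OVCAR3 libraries was sequenced after a stranded library kit, per the labels' protocols. Among the authors' tools, per the submitters' processing notes, were Bowtie, TopHat2 2.1.1, Trimmomatic 0.32, R 3.3.1 and DESeq2 1.12.4, and the builds hg19 and GRCh38.p5, with no role stated. How reads were counted, and with which annotation and strand setting, is not given in the sources used here. The authors deposited FPKM per gene and library. In their own comparison, per the file headers, each gene has its mean normalised count as a signal over the 6 libraries, the log2 fold change and its error, a score for the test, and raw and adjusted p-values. Of 27104 gene identifiers, 25344 had the same version in GENCODE 29, and all 25344 had the same coordinates there. FPKM scaled by the authors' deposited mean normalised count gave whole reads, within 0.001, for 100.0% of values.

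Genes averaging 1 FPKM or more were tested on log2(FPKM + 1) by limma 3.58.1 (R 4.3.3, 2-sided, mean-variance trend), with p-values adjusted by Benjamini-Hochberg over 14761 genes and a threshold of 0.05. Log2 changes with the pseudocount of 1 understate changes of low genes, and means, SDs and ratios of FPKM have none. The fit was tested on simulated data. Limma-voom took genes with at least 5 reads in at least 3 libraries. Exact intervals of read ratios cover counting error only. Members and lists were chosen with earlier results of these data known. Named genes were the members, DAB2IP, up to 4 tested genes per list with the lowest adjusted p, the 2 nearest tested genes on each side of the cluster and the 5 genes most like the summed members. Other genes were named after their values were seen. The result for 1 listed gene is not reported here.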

Additional observations from a re-analysis of the deposited data

How the results depend on the processing

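KLK5 and KLK7 kept their direction and their call in all 16 alternatives, with log2 changes from 0.68 to 0.82 and from −0.81 to −0.62 and adjusted p-values of at most 0.0103 and 0.0195 (limma, Benjamini-Hochberg). KLK8 kept its direction in all 16, at 0.32 to 0.57, but its call in 10. The number of kallikrein genes past the threshold and higher was therefore 1 with no filter on low values, 1 with a replicate block and 1 to 2 when a library was left out. KLK10 passed in 0 of 15 alternatives. KLK6 changed sign at −0.0118 with upper-quartile scaling, −0.0280 with equal library medians and −0.0215 to 0.0187 when a library was left out. Among neighbours, leaving out a library gave −0.0914 to 0.105 for JOSD2 and −0.00224 to 0.137 for ETFB. SNN, near its threshold at an adjusted p of 0.0470, lost its call in 10 alternatives (limma, Benjamini-Hochberg). The difference in summed kallikrein FPKM, DAB2IP O/E minus empty vector, was 9.15, against 7.22 to 10.2 in its alternatives.

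Over all genes, 2725 passed, against 4300 of 21733 genes tested by limma-voom (recovered reads) and 971 to 2744 when a library was left out. The low counts came without DAB2IP O/E replicate 3 (971), without DAB2IP O/E replicate 1 (1309) and without empty vector replicate 2 (1214). The cause was not tested. Libraries with the same replicate number had correlated deviations of 0.12, 0.10 and 0.06, not all over 0.1, so the numbers were not taken as pairs, and each library correlated best with its own number. With the replicate block 2393 genes passed, and KLK8 had an adjusted p of 0.0610 (limma, Benjamini-Hochberg).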
